A study of Homo sapiens with 6 samples.

Results

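The genes described here encode the proteasome, its assembly chaperones and its regulators. They were taken from the expression table by symbol, as every gene named PSMA to PSMG followed by a number, together with POMP, PAAF1, ADRM1 and SEM1. This rule found 51 of the 23569 genes listed. Of these, 50 had a mean of at least 0.1 FPKM (fragments scaled to gene length and to the fragments counted in the library) over the 6 libraries and were tested among 15353 genes. The remaining gene, PSMB11, encodes the catalytic subunit of the thymus proteasome and had 1 fragment in oeNC replicate 1 and 0 in the other 5 libraries. PSMA8, the testis alpha subunit, was not analysed here.

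RNA-seq was performed on TFK1 cells, a human cell line from an extrahepatic bile duct carcinoma. The negative control cells (oeNC, 3 libraries) were compared with TFK1 cells that stably overexpressed STUB1 after lentiviral delivery (oeSTUB1, 3 libraries). The labels list no drug treatment for either group. The study's methods describe puromycin selection of TFK1 cells after lentiviral infection, without naming the RNA-seq cells. The study made the comparison to look for tumor suppressor genes under the control of a STUB1-UHRF1/DNMT1 axis. The promoter of the construct and the number of clones are not given in the sources used here. A general statement in the study's methods calls its experiments independent and repeated, without naming the RNA-seq replicates or saying that they were separate cultures, so the p-values measure the spread between these libraries, which may be technical. Library totals recovered from the table lay between 33106564 and 36744521 fragments.

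The proteasome is the protease that degrades proteins tagged with ubiquitin. Its 20S core is a barrel of outer alpha rings and inner beta rings, and PSMB5, PSMB6 and PSMB7 carry the active sites inside it. The 19S particle caps the barrel, binds and removes ubiquitin chains, and unfolds substrates with a ring of ATPases. In cells exposed to interferon gamma, PSMB8, PSMB9 and PSMB10 replace the constitutive active-site subunits to form the immunoproteasome, which favours peptides presented on MHC class I molecules. STUB1, also called CHIP, is a ubiquitin ligase that works with HSP70 and HSP90 and directs misfolded clients to the proteasome.

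The overexpressed gene was higher in every oeSTUB1 library. STUB1 measured 32.9, 33.0 and 30.9 FPKM in oeNC replicates 1 to 3 and 61.4, 75.0 and 61.9 FPKM in oeSTUB1 replicates 1 to 3. The log2 fold change was 1.03 (SE 0.0966, adjusted p = 0.000642, limma), 0.93 without oeSTUB1 replicate 2 and 0.95 with a correction for gene length. An exact permutation test of 3 libraries against 3 cannot give a two-sided p under 0.1, and that was its value for STUB1.

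oeSTUB1 replicate 2 stood apart from the other libraries in the proteasome genes. It held the highest of the 6 values in 42 of the 50 members tested. The summed FPKM of all 51 members was 3179, 3089 and 3046 in oeNC replicates 1 to 3 and 3233, 4238 and 3248 in oeSTUB1 replicates 1 to 3. Against the oeNC mean, the median member was higher by 0.08, 0.44 and 0.07 on the log2 scale in oeSTUB1 replicates 1, 2 and 3. The difference between oeSTUB1 replicate 2 and replicates 1 and 3 moved with gene length. In the other genes tested, its median on the log2 scale was 0.34 for genes under 1000 bases, 0.31 from 1000 to 2000 bases, 0.11 from 2000 to 4000 bases and -0.23 from 4000 bases up. The members had medians of 0.54, 0.40, 0.34 and 0.22 in the same length classes. Most members were well expressed, and for the other genes expressed at 10 FPKM or above the medians were 0.52, 0.37, 0.15 and -0.21. Against these, the members were only slightly higher in the classes under 2000 bases and more clearly higher from 2000 bases up. Proteasome genes were short, with a median length of 1754 bases against 3694 bases over all genes tested, and 28 of the 51 were under 2000 bases. The part that length or this library played in the results was not tested beyond fits without replicate 2 and with a length correction.

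**Figure D1:**
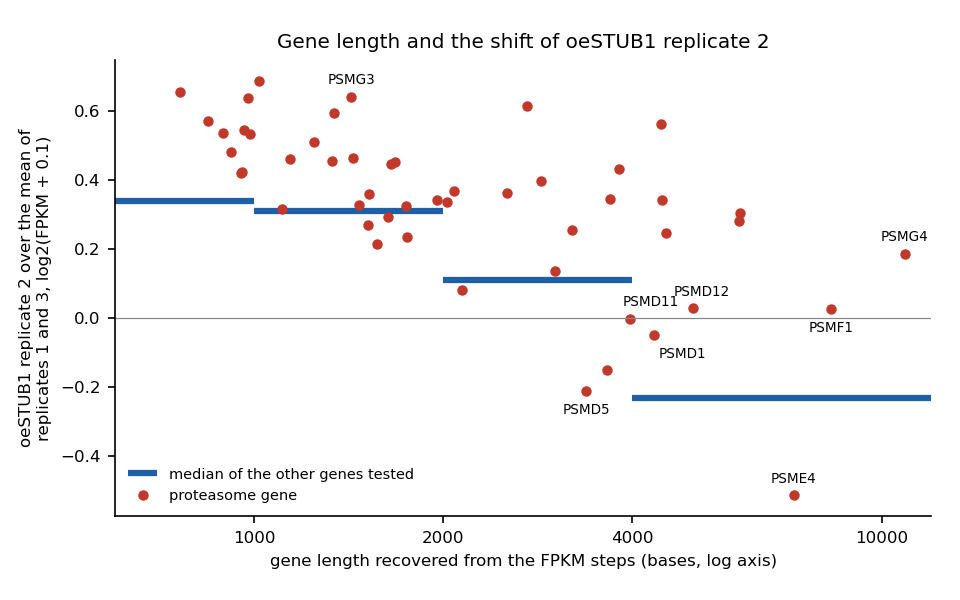
Each point is 1 proteasome gene, placed by its length in bases (log axis) and by the log2(FPKM + 0.1) difference of oeSTUB1 replicate 2 from the mean of oeSTUB1 replicates 1 and 3. Bars give the median of the other genes tested in each length class, which goes from 0.34 in the shortest genes to -0.23 in the longest, while PSME4 at 7250 bases is the lowest proteasome gene.

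FPKM is scaled to gene length, so a comparison of levels between genes rests on the length used for each. The recovered length was 4452 bases for SEM1 and 10891 bases for PSMG4, against a median of 1754 bases over the members. Whether these lengths match the transcripts in these cells was not tested, so the low places of these 2 genes are uncertain. The constitutive core was abundant in oeNC cells. PSMB4 had the highest level of all members at 189 ± 6.39 FPKM (SD, n = 3), followed by PSMA7 at 175 ± 4.66 FPKM and PSMB6 at 173 ± 8.32 FPKM. PSMA7 and PSMB6 did not differ beyond their spread. Among the 14 subunits of the alpha and beta rings, PSMA5 was the lowest in every library, and PSMB4 was between 7.08 and 7.64 times as high as PSMA5 in the oeNC libraries. The 19 subunits of the 19S particle ran from SEM1 at 11.8 ± 0.679 FPKM, a small acidic subunit of the lid, to PSMD8 at 128 ± 3.58 FPKM, a lid subunit. The immunoproteasome subunits lay below all of these, at 2.13 ± 0.109 FPKM for PSMB8, 7.85 ± 0.503 FPKM for PSMB9 and 9.51 ± 0.763 FPKM for PSMB10. PSMB10 was close to SEM1. Only PSMB11, PSMG4 and PAAF1 joined PSMB8 and PSMB9 in the 5 lowest places of the 51 in oeNC cells. PSMG4, an assembly chaperone of the core, was at 0.848 ± 0.152 FPKM.

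**Figure D2:**
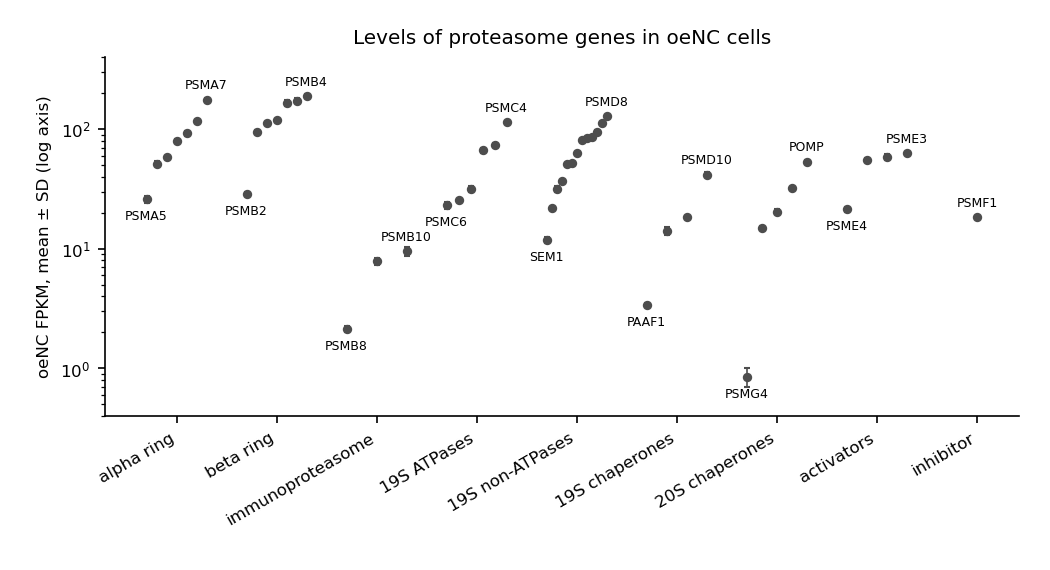
Levels of the 50 tested proteasome genes in oeNC cells by class, as mean FPKM with SD over 3 libraries on a log axis. The highest and the lowest gene of each class are named, and PSMB8 at 2.13 FPKM lies below every alpha, beta and 19S subunit.

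In the comparison of oeSTUB1 with oeNC cells, a gene was called at a Benjamini-Hochberg adjusted p under 0.05 in limma, adjusted over all 15353 genes tested. PSMB8, PSMD6, PSMD8, PSME1 and PSME2 rose, and 0 members fell. The 5 higher calls among 50 members stand beside 7.01% of all genes tested that were called higher, and the 0 lower calls beside 6.59%. At an unadjusted p under 0.05, 16 members were higher and 0 lower, beside 16% and 13.7% of all genes tested. The limma-voom method on recovered fragments called 5 members higher and 0 lower, beside 7.13% and 6.96%. Only PSMB8 also passed a log2 fold change of 1, beside 2.79% of all genes tested that did so upwards and 2.4% downwards. The median log2 fold change of the members was 0.19, against 0.02 over all genes tested, and 43 of the 50 were positive. In 26 members all oeSTUB1 values lay above all oeNC values, against 21.5% of the genes tested, and in 1 member, PSMD11, all lay below, against 17.3%.

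Of the fits that left out a library, the one without oeSTUB1 replicate 2 was singled out because the values of that library stood apart. It rests on oeSTUB1 replicates 1 and 3 alone. It called 26.8% of all genes tested in either direction, against 13.6% with all libraries. Without oeSTUB1 replicate 2, 12 members were called higher and 4 lower, beside 14.8% and 12% of all genes tested. The 12 were PSMB8, PSMD6, PSMD8, PSME1, PSME2, PSME3, PSMD2, PSMD5, PSMD12, PSMC4, PSMC5 and PSMA7, and the 4 were PSMB6, PSMB9, PSMD14 and PSMG3. The median log2 fold change of the members was then 0.07, against 0.03 over all genes tested. The values of 27 members lay wholly above and of 9 wholly below those of oeNC, beside 31.6% and 23.9% of all genes tested. With each library corrected for gene length by a lowess curve, 13 members were called higher and 1 lower, beside 10.9% and 10.7%. With the correction and without replicate 2, the counts were 13 and 4, beside 13.1% and 12.7%. PSMB8 was the only member called when any 1 of the 3 oeNC libraries was left out.

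**Figure D3:**
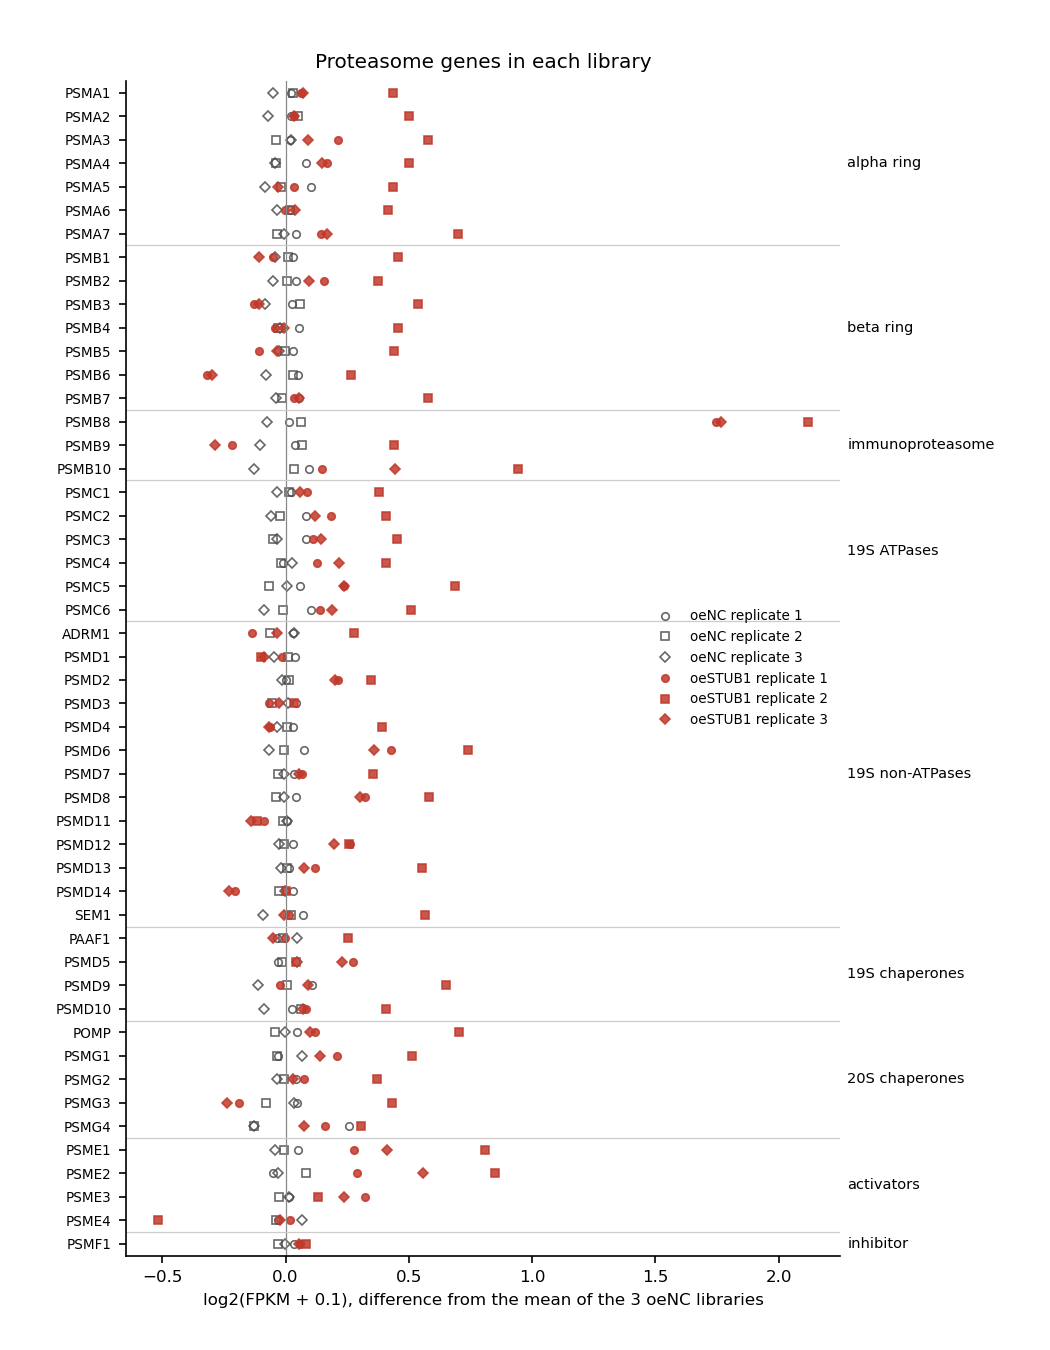
Each row is 1 of the 50 tested proteasome genes, and each point a library, placed by its log2(FPKM + 0.1) difference from the mean of the 3 oeNC libraries. Filled squares, oeSTUB1 replicate 2, are the highest value in 42 of the 50 rows, and PSMB8 is the only row in which all 3 oeSTUB1 libraries lie past 1.

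PSMB8 had the largest fold change of the 50 members. This subunit replaces PSMB5 and carries the chymotrypsin-like activity of the immunoproteasome. It measured 2.15, 2.23 and 2.02 FPKM in the oeNC libraries, from 114, 118 and 113 fragments. In oeSTUB1 replicates 1 to 3 it measured 7.38, 9.59 and 7.50 FPKM, from 388, 484 and 391 fragments. The groups were far apart, and replicate 2 was the highest. The mean rose from 2.13 ± 0.109 to 8.16 ± 1.24 FPKM, a log2 fold change of 1.88 (SE 0.125, adjusted p = 0.000166, limma). It was 1.76 without oeSTUB1 replicate 2 and 1.80 with the length correction, and PSMB8 was called in all 19 settings, with log2 fold changes from 1.54 to 1.94. The exact permutation p was 0.1, the smallest possible here.

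PSMB9 replaces PSMB6 and was not called. It measured 8.05, 8.23 and 7.28 FPKM in the oeNC libraries and 6.73, 10.7 and 6.42 FPKM in the oeSTUB1 libraries. Replicate 2 lay above all oeNC values and replicates 1 and 3 below them. The log2 fold change was -0.02 (95% confidence interval -0.45 to 0.41, adjusted p = 0.95, limma) and -0.25 (adjusted p = 0.044) without replicate 2, while it was positive when oeNC replicate 2, oeSTUB1 replicate 1 or oeSTUB1 replicate 3 was left out. PSMB10, which replaces PSMB7, measured 10.1, 9.71 and 8.66 FPKM in the oeNC libraries and 10.5, 18.3 and 12.9 FPKM in the oeSTUB1 libraries. The groups did not overlap, but the highest oeNC and the lowest oeSTUB1 value were close. Its log2 fold change was 0.51 (SE 0.187, adjusted p = 0.115, limma), 0.30 (adjusted p = 0.076) without replicate 2, and 0.42 (adjusted p = 0.031) with the length correction.

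The constitutive counterparts were far more abundant than the inducible subunits and were not called. PSMB5, the chymotrypsin-like subunit of the standard core, measured 115, 112 and 110 FPKM in the oeNC libraries and 104, 153 and 110 FPKM in the oeSTUB1 libraries. PSMB6, the caspase-like subunit, measured 179, 177 and 164 FPKM and then 139, 208 and 141 FPKM. PSMB7, the trypsin-like subunit, measured 98.0, 93.5 and 91.8 FPKM and then 96.5, 141 and 97.9 FPKM. In all 3 genes oeSTUB1 replicate 2 was the highest of the 6 libraries and the groups overlapped. Their log2 fold changes were 0.10 for PSMB5, -0.12 for PSMB6 and 0.22 for PSMB7. Without replicate 2, PSMB6 fell (-0.31, adjusted p = 0.0053, limma) and PSMB5 stood at -0.07 (adjusted p = 0.26). With the length correction PSMB5 was at 0.01, PSMB6 at -0.21 and PSMB7 at 0.13, and none was called.

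A ratio of subunits within a library does not depend on the scaling of that library. PSMB8 was 1.88%, 1.99% and 1.83% of PSMB5 in oeNC replicates 1 to 3 and 7.07%, 6.28% and 6.85% in oeSTUB1 replicates 1 to 3. The ratio was 3.55 times as high on average, and replicate 2 had the lowest of the 3 oeSTUB1 ratios. PSMB8 was 27.2% ± 0.472 of PSMB9 in oeNC and 105% ± 14 in oeSTUB1 cells (SD, n = 3). PSMB9 was 4.53% ± 0.105 of PSMB6 in oeNC and 4.85% ± 0.286 in oeSTUB1 cells, with overlapping groups. PSMB10 was 10.1% ± 0.539 of PSMB7 and then 12.4% ± 1.29, without overlap. These are ratios of mRNA levels and say nothing of the composition of assembled proteasomes.

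**Figure D4:**
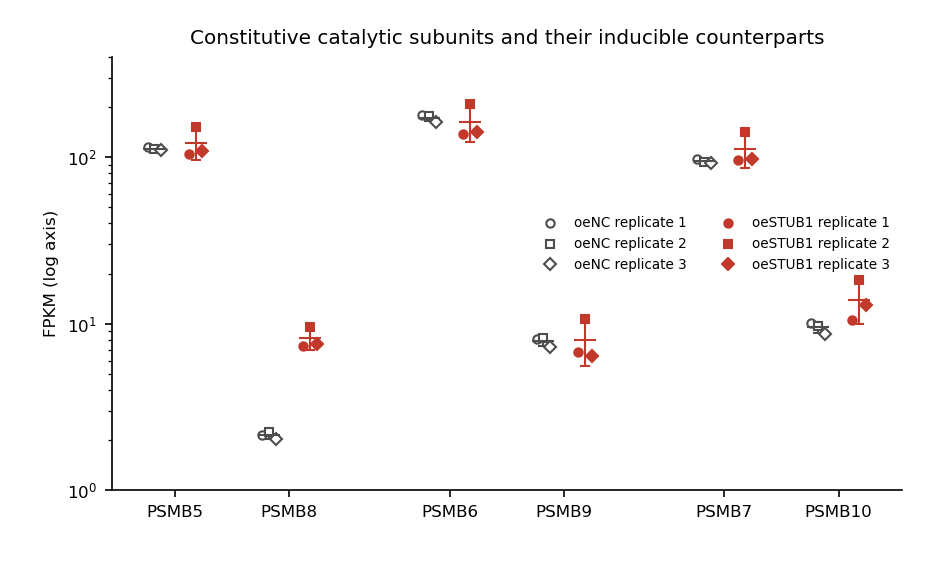
FPKM (log axis) of the constitutive active-site subunits PSMB5, PSMB6 and PSMB7, each beside the inducible subunit that replaces it, in 3 oeNC libraries (open symbols) and 3 oeSTUB1 libraries (filled symbols), with mean and SD. PSMB8 lies between 2.02 and 2.23 in oeNC and between 7.38 and 9.59 in oeSTUB1, while PSMB9 overlaps between the groups.

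PSMB8 and PSMB9 lie close together in the class II region of chromosome 6 (GENCODE release 29, GRCh38), PSMB8 on the minus strand at chr6:32840717-32844703 and PSMB9 on the plus strand at chr6:32844136-32859585. They are the neighbours of the peptide transporter genes TAP1 and TAP2. The annotated bodies of PSMB8 and PSMB9 overlap, and the antisense RNA PSMB8-AS1 (chr6:32844086-32846495, plus strand) overlaps both. The RefSeq start window of PSMB9 (chr6:32853942-32854241) lies past the ends of PSMB8 and PSMB8-AS1, so the overlap with PSMB9 depends on the annotation. The annotation used for the counting is not given in the sources used here. For PSMB8-AS1, 3, 1 and 3 fragments were counted in oeNC replicates 1 to 3 and 26, 22 and 36 in oeSTUB1 replicates 1 to 3 (adjusted p = 0.0015, limma). Whether the counting used strand is not given in the sources used here, so reads of PSMB8 and of its antisense partner cannot be told apart where they overlap. TAP1 and TAP2 were not called, at log2 fold changes of 0.17 and 0.27 (adjusted p = 0.23 and 0.096, limma), although their groups did not overlap. TAP2 was called higher without replicate 2 (0.29, adjusted p = 0.028) and with the length correction (0.29, adjusted p = 0.032). HLA-DMB, a class II gene within 100 kb of PSMB8, was lower without overlap, at 23.1, 22.3 and 23.0 FPKM in the oeNC libraries and 12.9, 18.6 and 19.9 FPKM in the oeSTUB1 libraries. Its log2 fold change of -0.43 was not called (adjusted p = 0.11, limma), and it was called lower with the length correction (-0.52, adjusted p = 0.024).

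The start regions of the immunoproteasome and PA28 genes are shown because interferon induces these genes through short promoter elements, and these letters can be looked up in them. Each is the RefSeq window (GRCh38.p14) of 250 bases before and 50 bases after the annotated start, 5′ to 3′ on the strand of the gene. Promoters were found for 45 of the 51 members. Capitals mark matches on either strand to the interferon-stimulated response element, searched as GAAA, any 2 bases and GAAA again, the gamma-activated site, searched as TTCNNNGAA, the core of the antioxidant response element bound by NRF1 and NRF2, searched as TGACNNNGC, and the CCAAT box. Matches of different elements may overlap.
PSMB8, chr6:32844630-32844929, minus strand: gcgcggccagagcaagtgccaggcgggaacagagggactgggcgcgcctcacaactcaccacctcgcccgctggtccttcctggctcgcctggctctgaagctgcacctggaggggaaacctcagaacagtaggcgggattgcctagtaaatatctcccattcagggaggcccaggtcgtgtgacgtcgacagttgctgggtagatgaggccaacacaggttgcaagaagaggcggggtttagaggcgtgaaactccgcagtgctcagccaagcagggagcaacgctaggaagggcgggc
PSMB9, chr6:32853942-32854241, plus strand: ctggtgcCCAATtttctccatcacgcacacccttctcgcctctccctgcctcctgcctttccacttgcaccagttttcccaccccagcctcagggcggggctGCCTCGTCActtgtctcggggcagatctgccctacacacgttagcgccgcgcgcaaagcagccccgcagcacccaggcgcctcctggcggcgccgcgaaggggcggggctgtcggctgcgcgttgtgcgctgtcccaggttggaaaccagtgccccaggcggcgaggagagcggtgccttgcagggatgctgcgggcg
PSMB10, chr16:67936801-67937100, minus strand: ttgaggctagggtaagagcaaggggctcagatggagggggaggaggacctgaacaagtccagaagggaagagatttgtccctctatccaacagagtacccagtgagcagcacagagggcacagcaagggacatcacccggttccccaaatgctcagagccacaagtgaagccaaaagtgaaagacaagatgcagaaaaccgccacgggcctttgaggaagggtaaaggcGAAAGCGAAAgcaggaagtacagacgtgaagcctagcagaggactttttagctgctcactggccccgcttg
PSME1, chr14:24135944-24136243, plus strand: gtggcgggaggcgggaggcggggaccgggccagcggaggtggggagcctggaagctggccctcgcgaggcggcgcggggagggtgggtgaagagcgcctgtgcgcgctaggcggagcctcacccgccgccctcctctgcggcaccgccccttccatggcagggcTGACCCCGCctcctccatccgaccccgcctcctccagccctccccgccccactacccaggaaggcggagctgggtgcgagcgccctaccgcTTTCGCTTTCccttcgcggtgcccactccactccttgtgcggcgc
PSME2, chr14:24146561-24146860, minus strand: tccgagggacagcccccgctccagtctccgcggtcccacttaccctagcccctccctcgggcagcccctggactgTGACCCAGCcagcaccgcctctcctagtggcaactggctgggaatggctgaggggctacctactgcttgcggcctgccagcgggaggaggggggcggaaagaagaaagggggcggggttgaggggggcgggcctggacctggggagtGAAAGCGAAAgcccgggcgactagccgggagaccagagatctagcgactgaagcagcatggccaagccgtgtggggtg
The windows of PSMB10, PSME1 and PSME2 hold the interferon-stimulated letters, from base 230, 256 and 223 of the window, and the PSMB8 window holds no match to any of the 4 elements. PSMB9 has a CCAAT box and 1 antioxidant core on the opposite strand. Among the 44 tested members with a window, 6 (13.6%) hold the interferon-stimulated letters, against 2.84% of the 11980 tested genes with a window. Besides the 3 genes above they are PSMA4, PSMB4 and PSMG4. With all libraries PSME1 and PSME2 were called, and PSMB10, PSMA4, PSMB4 and PSMG4 were not. The antioxidant core is in 14 members (31.8%) against 15.2% of all windows, the gamma-activated site in 5 (11.4%) against 6.43%, and the CCAAT box in 20 (45.5%) against 36.1%. These matches describe letters in a window and not bound sites.

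Both genes of the interferon-inducible PA28 activator rose. PSME1 and PSME2 encode the alpha and beta subunits of PA28, a ring that opens the gate of the 20S core without ATP and is induced by interferon gamma. PSME1 measured 57.3, 55.1 and 53.8 FPKM in the oeNC libraries and 67.1, 97.1 and 73.7 FPKM in the oeSTUB1 libraries. PSME2 measured 56.3, 61.8 and 57.0 FPKM and then 71.3, 105 and 85.7 FPKM. Neither gene overlapped between the groups, and replicate 2 was the highest library of both. The log2 fold change was 0.50 for PSME1 (SE 0.133, adjusted p = 0.046, limma) and 0.56 for PSME2 (SE 0.137, adjusted p = 0.033). Without replicate 2 it was 0.34 (adjusted p = 0.0048) and 0.42 (adjusted p = 0.010), and with the length correction 0.41 (adjusted p = 0.0024) and 0.47 (adjusted p = 0.0031). Over all 19 settings PSME1 was called in 11, with adjusted p from 0.0023 to 0.15, and PSME2 in 13, from 0.0031 to 0.12. The subunits kept their ratio, since PSME2 was 105% ± 6.99 of PSME1 in oeNC and 110% ± 5.36 in oeSTUB1 cells and the groups overlapped. PSME2 has 2 named pseudogenes, and PSME1 and PSME2 each overlap a gene on the opposite strand (EMC9 and RNF31), so a part of their fragments is uncertain.

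PSME3 and PSME4 encode the other activators, the nuclear PA28 gamma and PA200. PSME3 measured 63.2, 61.5 and 63.2 FPKM in the oeNC libraries and 78.4, 68.6 and 73.8 FPKM in the oeSTUB1 libraries. The groups did not overlap, and here replicate 2 was the lowest of the oeSTUB1 libraries. Its log2 fold change of 0.23 was not called (adjusted p = 0.091, limma), and without replicate 2 it was 0.28 (adjusted p = 0.0047). PSME4 measured 20.9, 20.8 and 22.4 FPKM and then 21.6, 14.9 and 21.0 FPKM. Only replicate 2 was low, and the log2 fold change of -0.17 (adjusted p = 0.46) became -0.0031 (adjusted p = 0.97) without it. PSMF1, the inhibitor PI31, stayed between 18.0 and 19.5 FPKM in all 6 libraries, with a log2 fold change of 0.06 (95% confidence interval -0.10 to 0.23, adjusted p = 0.58).

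The 19S lid held the other members that rose. PSMD6 encodes a scaffold subunit of the lid. It measured 33.2, 31.4 and 30.1 FPKM in the oeNC libraries and 42.5, 52.7 and 40.5 FPKM in the oeSTUB1 libraries, so that every oeSTUB1 library lay above every oeNC library. The log2 fold change was 0.51 (SE 0.11, adjusted p = 0.022, limma) and 0.39 without replicate 2 (adjusted p = 0.0029), and 0.44 with the length correction (adjusted p = 0.0024). It was called in 16 of 19 settings, and the 3 without an oeNC library gave adjusted p up to 0.092. The antisense gene PSMD6-AS2 overlaps it.

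PSMD8 is another lid subunit and the most abundant gene of the 19S particle. It measured 132, 125 and 127 FPKM in the oeNC libraries and 160, 192 and 158 FPKM in the oeSTUB1 libraries, again without overlap. PSMD8 rose by a log2 fold change of 0.40 (SE 0.0962, adjusted p = 0.031, limma), 0.31 without replicate 2 (adjusted p = 0.0024) and 0.33 with the length correction (adjusted p = 0.0030). It was called in 12 of 19 settings, and 1 pseudogene carries its name.

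Of the 13 non-ATPase subunits of the 19S particle, 9 had a positive log2 fold change, and the median was 0.16. In 6 the groups did not overlap in the higher direction, beside 21.5% of all genes tested. PSMD2, a large base subunit that docks ubiquitin receptors and shuttle factors, measured 84.3, 85.0 and 83.4 FPKM and then 97.6, 107 and 96.9 FPKM. PSMD12, a lid scaffold, measured 22.3, 21.7 and 21.4 FPKM and then 26.2, 26.1 and 25 FPKM. Both were just short of the threshold with all libraries (adjusted p = 0.063 and 0.060, limma) and past it without replicate 2, at log2 fold changes of 0.21 (adjusted p = 0.0080) and 0.23 (adjusted p = 0.013). They were also called higher with the length correction, at 0.21 (adjusted p = 0.018) and 0.24 (adjusted p = 0.033). PSMD12 is a gene of 5012 bases, and replicate 2 did not stand out in it.

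PSMD14 went the other way in 2 of the oeSTUB1 libraries. It encodes the deubiquitinase that cuts ubiquitin chains off substrates at the lid, and measured 82.7, 79.3 and 80.7 FPKM in the oeNC libraries and 70.2, 80.9 and 69.0 FPKM in the oeSTUB1 libraries. Replicates 1 and 3 lay below all oeNC libraries and replicate 2 among them. It was at -0.14 on the log2 scale (adjusted p = 0.30, limma) with all libraries, and without replicate 2 PSMD14 fell (-0.22, adjusted p = 0.0088). With the length correction it was also called lower (-0.22, adjusted p = 0.019). PSMD11, a lid subunit, measured 52.2, 51.5 and 52.1 FPKM and then 49.0, 48.0 and 47.1 FPKM, and its log2 fold change of -0.11 was not called (adjusted p = 0.30). The ubiquitin receptors PSMD4 and ADRM1 had log2 fold changes of 0.09 and 0.04 with overlapping groups, and PSMD4 was at -0.07 and ADRM1 at -0.08 without replicate 2. PSMD1, the large base scaffold that ADRM1 docks to, was at -0.07, PSMD3 at -0.02, PSMD7 at 0.16, PSMD13 at 0.25 and SEM1 at 0.19, and none was called in any of the 19 settings.

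The 6 ATPases of the 19S base, PSMC1 to PSMC6, form the ring that unfolds substrates. All 6 had higher values in every oeSTUB1 library than in every oeNC library, also without replicate 2. Of all genes tested, 21.5% did so with all libraries and 31.6% without replicate 2. With all libraries 0 were called by limma or limma-voom, and 4 were higher at an unadjusted p under 0.05, beside 16% of all genes tested. Their log2 fold changes ran from 0.18 for PSMC1 to 0.39 for PSMC5, with a median of 0.24. PSMC5 measured 77.0, 70.6 and 74.2 FPKM and then 87.2, 119 and 87.0 FPKM (adjusted p = 0.089, limma), and without replicate 2 it was higher by 0.24 on the log2 scale (adjusted p = 0.012). PSMC4 measured 114, 113 and 117 FPKM and then 125, 152 and 133 FPKM, with an adjusted p of 0.11 and, without replicate 2, a log2 fold change of 0.17 (adjusted p = 0.028). With the length correction PSMC5 and PSMC4 were called higher, at 0.31 (adjusted p = 0.011) and 0.18 (adjusted p = 0.031). Without replicate 2 the ring as a whole had a median of 0.16. PSMC1 has 13 named pseudogenes, more than any other member.

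The alpha ring, PSMA1 to PSMA7, gates the core. All 7 genes had positive log2 fold changes, from 0.15 for PSMA5 to 0.34 for PSMA7. By limma and limma-voom 0 were called, and 2 were higher at an unadjusted p under 0.05, beside 16% of all genes tested. Replicate 2 was the highest library in each. The median was 0.19 with all libraries and 0.07 without replicate 2, when PSMA7 alone was called higher (0.16, adjusted p = 0.031, limma). PSMA7 measured 180, 171 and 175 FPKM in the oeNC libraries and 194, 285 and 197 FPKM in the oeSTUB1 libraries. PSMA3 and PSMA7 were called higher with the length correction (adjusted p = 0.044 and 0.031).

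The constitutive beta ring, PSMB1 to PSMB7, had the smallest median of the classes with more than 1 gene. Its median log2 fold change was 0.10 with all libraries and -0.07 without replicate 2, and replicate 2 was the highest library in all 7 genes. With all libraries 0 were called by limma or limma-voom, and 0 had an unadjusted p under 0.05. Without replicate 2, PSMB1, PSMB3, PSMB5 and PSMB6 had both remaining oeSTUB1 values below all oeNC values, while PSMB2 alone was higher without overlap. Of all genes tested, 23.9% were lower and 31.6% higher in this way. In that fit PSMB6 was the only beta ring gene called. The summed FPKM of the 14 alpha and beta genes was 1440 to 1522 in oeNC and 1470, 2085 and 1472 in oeSTUB1 replicates 1, 2 and 3. The sum over the 19 subunits of the 19S particle was 1170 to 1217 in oeNC and 1269, 1531 and 1267 in oeSTUB1 replicates 1, 2 and 3.

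Of the 5 assembly chaperones of the core and 4 of the 19S base, 0 were called by limma or limma-voom with all libraries. At an unadjusted p under 0.05, 1, PSMG1, was higher, beside 16% of all genes tested. PSMG1 to PSMG4 and POMP build the core, and POMP completes the beta ring and is degraded by the finished proteasome. POMP measured 55.2, 51.7 and 53.2 FPKM and then 57.9, 86.9 and 57.1 FPKM, a log2 fold change of 0.31 (adjusted p = 0.24, limma) and of 0.11 (adjusted p = 0.12) without replicate 2. PSMG1 was higher without overlap at 0.29 (adjusted p = 0.13), and was called with the length correction (0.22, adjusted p = 0.044). PSMG3 measured 21.1, 19.3 and 20.9 FPKM and then 17.9, 27.5 and 17.3 FPKM, and it fell without replicate 2 (-0.21, adjusted p = 0.031). PSMD5, PSMD9, PSMD10 and PAAF1 hold ATPase intermediates during assembly of the 19S base. Of these PSMD5 was called higher without replicate 2, at 22.2 and 21.5 FPKM against 18.0, 18.2 and 18.9 FPKM in oeNC (0.25, adjusted p = 0.011), and replicate 2 itself was at 18.9 FPKM.

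**Figure D5:**
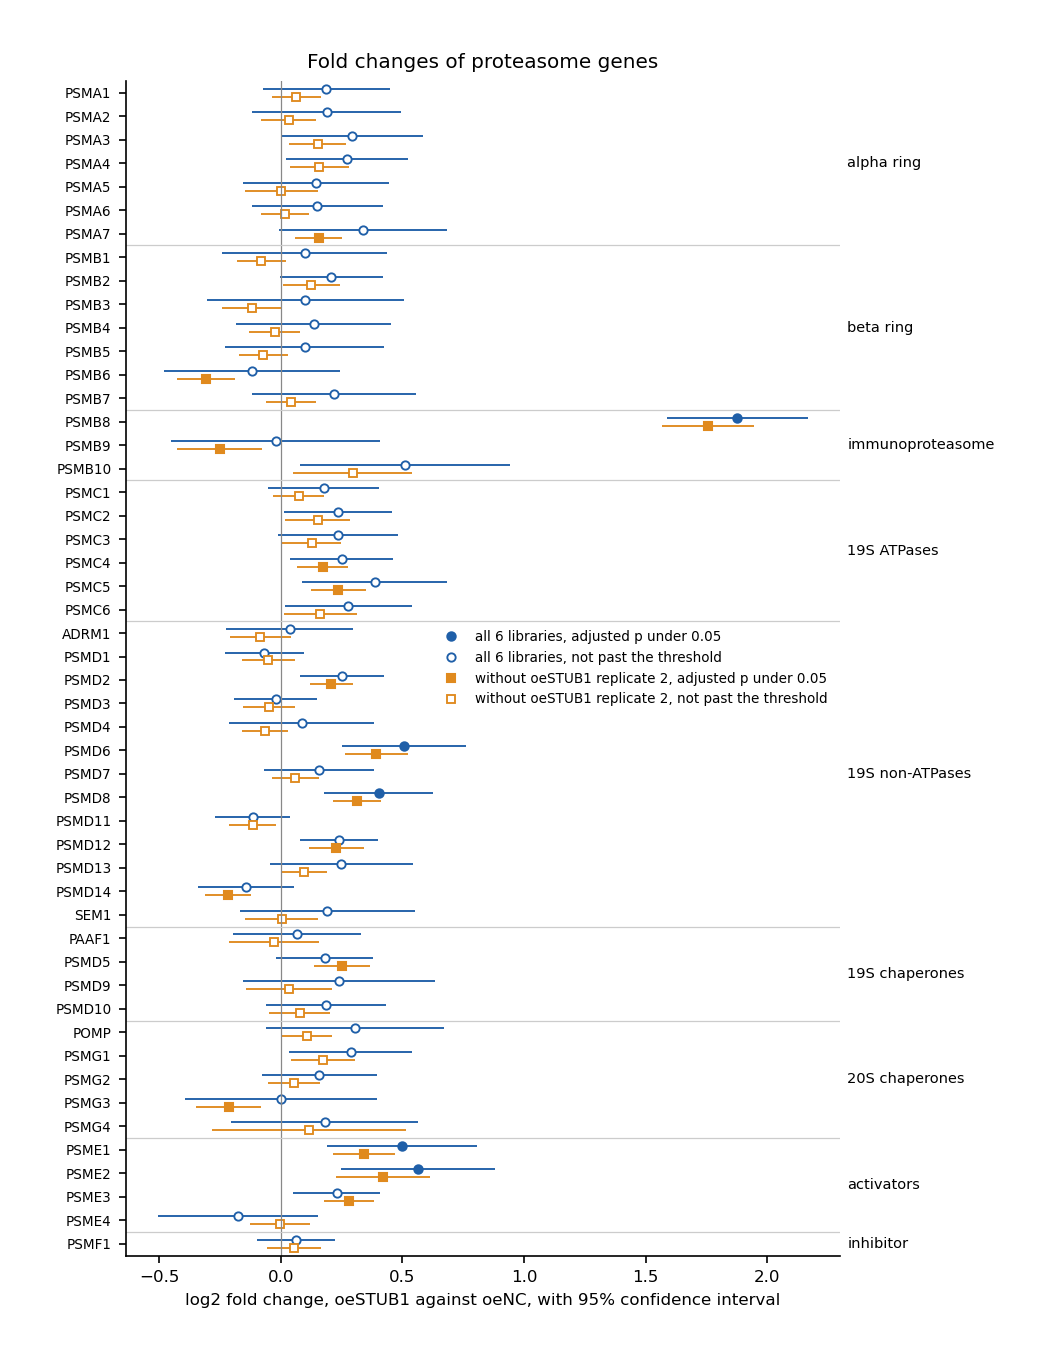
Log2 fold changes of the 50 tested proteasome genes, oeSTUB1 against oeNC, with 95% confidence intervals from limma, for all 6 libraries (blue circles) and without oeSTUB1 replicate 2 (orange squares). Filled symbols have an adjusted p under 0.05. PSMB8, PSMD6, PSMD8, PSME1 and PSME2 are filled in both fits, and the intervals are narrower without replicate 2 in all but PSMG4.

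The places of the genes were also compared. PSMD1, PSMD14 and PSME4 lie on chromosome 2 and had log2 fold changes from -0.17 to -0.07, with a median of -0.14, and the 1028 other genes tested on chromosome 2 had a median of -0.21. They were 3 of the 7 members with a negative log2 fold change. The others were PSMB6, PSMD11 and PSMD3 on chromosome 17 and PSMB9 on chromosome 6. On chromosome 14, which carries 7 members including PSME1 and PSME2, the members had a median of 0.28 and the 489 other genes 0.05. On chromosome 17, which also carries 7, the medians were 0.10 and -0.04.

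A list of 26 genes that supply, regulate or assist the proteasome gave 0 genes called higher and 1 lower by limma and limma-voom. Of all genes tested, limma called 7.01% higher and 6.59% lower, and limma-voom 7.13% and 6.96%. At an unadjusted p under 0.05, 6 of the list were higher and 2 lower, beside 16% and 13.7% of all genes tested. NFE2L2 encodes NRF2, a factor that raises proteasome genes under oxidative stress. It measured 47.3, 46.1 and 59.0 FPKM in the oeNC libraries and 35.6, 36.2 and 36.7 FPKM in the oeSTUB1 libraries, without overlap, and it fell (-0.48, adjusted p = 0.022, limma). It was called in 15 of the 19 settings. The call was lost without oeNC replicate 1, oeNC replicate 3, oeSTUB1 replicate 1 or oeSTUB1 replicate 3, with adjusted p up to 0.065, and the list then had 0 genes called. NFE2L1 encodes NRF1, which restores proteasome expression when the proteasome is inhibited, and averaged 60.9 FPKM in control and 60.3 FPKM in oeSTUB1 cells. The list median was 0.09. Without replicate 2, 6 of the 26 genes were called higher and 2 lower, beside 14.8% and 12% of all genes tested. The 6 were DDI2, the protease that activates NRF1, the proteasome-associated factors UBE3C, ECPAS and PITHD1, and the shuttle factors RAD23B and UBQLN1. ZFAND5, a proteasome activator, fell with NFE2L2. With the length correction 2 were higher, UBQLN1 and PITHD1, and NFE2L2 was lower, beside 10.9% and 10.7% of all genes tested.

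Of 10 genes that act with the immunoproteasome in MHC class I presentation, 3 were called higher and 0 lower by limma. The shares over all genes tested were 7.01% and 6.59%. By limma-voom 2 were called higher and 0 lower, beside 7.13% and 6.96% of all genes tested. At an unadjusted p under 0.05, 7 were higher and 0 lower, beside 16% and 13.7%. B2M, the class I light chain, measured 59.3, 56.5 and 59.7 FPKM in the oeNC libraries and 74.9, 94.0 and 79.5 FPKM in the oeSTUB1 libraries (0.49, adjusted p = 0.015, limma). IRF1, a transcription factor that induces immunoproteasome genes, measured 2.96, 3.07 and 4.31 FPKM and then 5.41, 6.41 and 6.12 FPKM (0.79, adjusted p = 0.015). The other gene called was TAPBP, which loads peptides on class I molecules (0.29, adjusted p = 0.048). In these 3 genes the groups did not overlap. The class I heavy chain genes HLA-B and HLA-C overlapped between the groups and were called in 0 of 19 settings. Their log2 fold changes were 0.34 (adjusted p = 0.13, limma) and -0.06 (adjusted p = 0.67). Without replicate 2 HLA-B was at 0.34 (adjusted p = 0.11) and HLA-C at -0.14 (adjusted p = 0.064). Without replicate 2 the list had 6 genes called higher and 0 lower, with TAP2, ERAP1 and NLRC5 added, beside 14.8% and 12% of all genes tested. With the length correction the list had 5 and 0, with TAP2 and ERAP1 added, beside 10.9% and 10.7%. It had 0 genes called without oeNC replicate 1 or oeNC replicate 2, 1 gene, IRF1, without oeNC replicate 3, and 2, B2M and IRF1, without oeSTUB1 replicate 1 or oeSTUB1 replicate 3.

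Cell type markers were examined in the same libraries. Of 8 markers of biliary and simple epithelium, 5 were called lower and 1 higher by limma, beside 6.59% and 7.01% of all genes tested. Their summed FPKM lay between 7431 and 8008 in control and between 4733 and 6272 in oeSTUB1 libraries. KRT8 and KRT18 made up most of it, and KRT19, a defining bile duct keratin, averaged only 0.453 FPKM in control and 2.97 FPKM in oeSTUB1 cells. The 8 leukocyte markers summed to 32.2 to 34.6 FPKM and 25.8 to 26.5 FPKM, most of it from CD68, while CD3E and MS4A1 were below 0.1 FPKM on average in both groups. Leukocytes express the immunoproteasome constitutively, and the pan-leukocyte marker PTPRC had 0.121 and 0.225 FPKM. The 8 fibroblast markers summed to 1.31 to 2.37 FPKM and 2.16 to 4.05 FPKM, and endothelial, hepatocyte and germ cell markers to at most 1.19 FPKM in any library. All libraries came from the TFK1 cell line and not from a tissue. The part of these differences in the proteasome results was not tested. In bulk libraries, fewer cells with a marker and less marker RNA per cell cannot be told apart.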

How the data were processed

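The authors deposited 1 table of FPKM values per gene symbol and library. Per the labels' processing notes, the tools were fastp 0.20.1, HISAT2 2.1.0 on GRCh38.p13, HTSeq 0.11.2, R 3.2.0 and DESeq2 1.22.2, and the annotation and strand setting are not given in the sources used here. Samples were grouped by their labels. Because FPKM steps are set by single fragments, library totals, gene lengths and whole fragments could be recovered for all 23569 genes (100%), with FPKM recomputed to within 4.93e-06. A divisor common to all libraries may be missing from a gene's fragments and length. Within each group, libraries differed beyond counting error (chi-square over degrees of freedom from 3.48 to 82.6), so none was a copy of another.

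The groups were compared by limma 3.58.1 (R 4.3.3, eBayes with trend, two-sided) on log2(FPKM + 0.1) where the mean reached 0.1 FPKM, with Benjamini-Hochberg adjustment, so fold changes of low genes are understated. The recovery, the main fit and some alternatives were also run on simulated data drawn from the fragments recovered here. The simulated libraries shared the same spread and had no shift with gene length. They do not show how the fits behave with a library such as oeSTUB1 replicate 2. The alternatives were other pseudocounts, filters and scalings, a replicate block, eBayes with no trend, each library left out, limma-voom on recovered fragments and a lowess on gene length (span 0.3). Equal FPKM sums, and the lowess without oeSTUB1 replicate 2, were chosen after seeing the data. Members, gene lists and motifs were chosen with earlier results of these data known. The class I list as first written held 2 further genes, which are not reported here. Genes with values in every library are PSMB5 to PSMB10, the activators, the members called and, chosen after their values were seen, further subunits. Coordinates are those of GENCODE release 29 on GRCh38, and promoters those of RefSeq (GRCh38.p14). The analysis used Python 3.11.15.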

Additional observations from a re-analysis of the deposited data

How the results depend on the processing

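The 5 members called higher became 3 with no filter on mean FPKM, 2 with eBayes without a trend, 13 with the length lowess, 13 with the lowess and without oeSTUB1 replicate 2, and 1 with a minimum log2 fold change of 1. Leaving out a library gave from 1 (each oeNC library) to 12 (oeSTUB1 replicate 2), with 5 without oeSTUB1 replicate 1 and 3 without oeSTUB1 replicate 3. Other settings, apart from the replicate block, gave 4 to 7. The 0 members called lower became 1 with quantile normalization, 1 with the length lowess and 4 with the lowess and without oeSTUB1 replicate 2, and from 0 to 4 with a library left out. The cause was not tested. The median log2 fold change of the members ranged from 0.07 to 0.25 and that of STUB1 from 0.93 to 1.08, with STUB1 called in every setting. Between 33 (the lowess without oeSTUB1 replicate 2) and 45 (without oeSTUB1 replicate 1) of the 50 members were positive in the settings run, apart from 43 of 51 with no filter and 42 of 49 with a filter at 1 FPKM. PSMB9 changed direction without oeNC replicate 2 (0.01), without oeSTUB1 replicate 1 (0.08) and without oeSTUB1 replicate 3 (0.11), and PSMB5 without oeSTUB1 replicate 2 (-0.071), also with the lowess (-0.048). Over the fits that left out a library, PSMB9 ranged from -0.25 to 0.11 and PSMB5 from -0.07 to 0.20.

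With a replicate block, 3 members were called higher (PSMB8, PSMD6 and PSME2). The sources used here do not say that the replicate numbers pair the libraries. Deviations from the group means had correlations of -0.049, -0.052 and 0.062 between libraries with the same number. Between libraries with different numbers they ran from -0.097 to 0.11. With 3 libraries in each group, these values cannot show whether the libraries were paired. Counts of fragments are lowest for PSMB9, PSMB8, PSMB10 and PSMG4 among the tested members.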
